A study of Sus scrofa with 9 samples.

Results

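Glycolysis in the pig testis draws on isozymes made by different genes in germ cells and in the other cells, and 7 such genes are described here in 3 groups of testicular biopsies. The germ-cell forms are PGK2 (phosphoglycerate kinase), LDHC (lactate dehydrogenase) and GAPDHS (glyceraldehyde-3-phosphate dehydrogenase), and the somatic counterparts are PGK1, LDHA and LDHB, and GAPDH. Members were the non-control probes of the array annotated with 1 of these symbols. The rule found 25 of 60889 probes, for 6 of the 7 genes among 6944 genes named on the array: 1 for PGK2, 2 for LDHC, 2 for GAPDH, 6 for PGK1, 2 for LDHA and 12 for LDHB. No probe matched the rule for GAPDHS, so it and its ratio to GAPDH were not analysed here.

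The control, oligospermic and trcp(1;14) groups had 3 single-colour arrays each. Control boars had normal semen and the karyotype 2n=38,XY. The oligospermic group came from 1 boar with that same karyotype. The trcp(1;14) group came from 1 oligo-astheno-teratospermic boar that carried the reciprocal translocation between chromosomes 1 and 14. The control arrays are described as 3 fertile boars or as a pool of boars, and the sources do not tie an array to an animal. Every group had 1 array on each of the 3 slides. Arrays of 1 boar are not replicate animals, so in those 2 groups the p-values measure the spread between biopsies and arrays. In control that spread may also hold differences between animals. On each array 37087 to 40632 probes were well above background, and arrays of 1 group correlated at 0.976 to 0.996.

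Phosphoglycerate kinase and glyceraldehyde-3-phosphate dehydrogenase act in the ATP-generating part of glycolysis, and lactate dehydrogenase interconverts pyruvate and lactate. PGK1 is X-linked, and PGK2 is an autosomal retrogene transcribed in meiotic and later germ cells, when the X chromosome is silenced. LDHC is transcribed from the spermatocyte stage and its subunit is found in sperm, whereas LDHA and LDHB are made in most tissues. In the RefSeq annotation of Sscrofa11.1 PGK1 lay on chromosome X, PGK2 on chromosome 7, GAPDH on chromosome 5, and LDHC and LDHA both on chromosome 2. LDHB had 2 entries, a gene of 20287 bases on chromosome 5 and a locus of 1280 bases on chromosome 2, and the RefSeq transcript named by the LDHB probes belonged to the shorter one.

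The sequences of some of the probes, copied from the array's annotation, show what stood for each isozyme and which probes were not independent. Other probe sequences are not shown here. Each probe had 60 bases. Those of PGK2, PGK1 (probe 1) and LDHA are shown by their first 30 bases and those of GAPDH (probe 1) and LDHB (probe 1) by their last 30, with the letters AATAAA, the usual polyadenylation signal, in capitals where the shown stretch held them. For LDHB probes 6 and 11 the capitals mark the 32 bases that both contain.
PGK2 probe 1: ctgtcttaaagatctcatttgaacttcact
LDHC probe 1: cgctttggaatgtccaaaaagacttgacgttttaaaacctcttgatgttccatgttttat
LDHC probe 2: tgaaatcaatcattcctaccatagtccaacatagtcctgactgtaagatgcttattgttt
GAPDH probe 1: atcAATAAAgtacactgtacccagaaaaaa
GAPDH probe 2: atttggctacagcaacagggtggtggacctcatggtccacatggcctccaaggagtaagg
PGK1 probe 1: ctggatttgcctatattcctcaagatccca
LDHA probe 1: ctgggatccaatgtacaaatccagtattgc
LDHA probe 2: taaattggttcttgtaaaatagttctactt
LDHB probe 1: gtccttgaacaAATAAAgttactatcatag
LDHB probe 6: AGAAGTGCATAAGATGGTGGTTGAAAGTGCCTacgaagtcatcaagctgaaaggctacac
LDHB probe 11: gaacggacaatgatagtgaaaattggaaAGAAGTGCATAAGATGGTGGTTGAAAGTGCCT
LDHB probe 12: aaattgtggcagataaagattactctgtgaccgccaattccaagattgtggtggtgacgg

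Probes of different genes shared no run longer than 8 bases. Since probes were compared only with probes, binding of a probe to the transcript of another isozyme was not tested. Within LDHB, 7 of the 12 probes shared 20 or more bases with another, and probes 2 and 3 had the same sequence, so the 25 probes held 24 distinct sequences. PGK1 probes 3 and 4 shared 24 bases. The 12 LDHB probes are therefore not 12 independent measurements.

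All 25 probes were well above background on all 9 arrays. Values are log2 signals after quantile normalization, changes are differences of group means on that scale with the SE of the limma fit, and differential probes needed both an adjusted p no higher than 0.01 and a log2 fold change of 2 or more in size. These were called for 5.61% of the 40643 probes tested in trcp(1;14) minus control, 0.0730% of 39713 in oligospermic minus control and 6.82% of 40567 in trcp(1;14) minus oligospermic. No isozyme probe was called in any of the 3 comparisons by limma, although 20, 1 and 22 of the 25 had an unadjusted limma p of at most 0.05, as did 58.1%, 9.84% and 68.7% of all probes. The results below therefore use the adjusted p alone, and "rose" and "fell" are kept for probes that passed it.

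At the adjusted p alone, 3 of the 25 isozyme probes passed in trcp(1;14) minus control, against 31.2% of all probes. PGK2 fell, and 1 GAPDH probe and 1 PGK1 probe rose, beside 15.6% of all probes in each direction. With the slide as a block none of the 3 did (adjusted p = 0.0117, 0.0171 and 0.015). Against the oligospermic boar 17 of 25 passed, beside 49.1% of all probes. All 3 germ-cell probes fell there (22.0% of all probes did) and 14 of 22 somatic probes rose (27.1% did), of which 12 were of LDHB. None passed in oligospermic minus control, where 0.0755% of all probes did. Separation of the arrays was wider. The trcp(1;14) and control arrays did not overlap for 23 of 25 probes, 3 of 3 germ-cell probes being lower and 20 of 22 somatic probes higher, while 62.0% of all probes did not overlap, 26.2% lower and 35.8% higher. The same counts, 23 of 25 with 3 lower and 20 higher, held against the oligospermic boar, beside 70.9% of all probes, 30.2% lower and 40.7% higher. The comparisons with control and with the oligospermic boar share the trcp(1;14) arrays, and those with control share the control arrays, so they are not separate evidence. In bulk tissue fewer cells of a type and less RNA per cell cannot be told apart.

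PGK2, the germ-cell phosphoglycerate kinase, was the isozyme furthest below the control level in the trcp(1;14) testis. Its log2 signal was 15.09, 15.48 and 15.01 on the control arrays, 15.45, 15.44 and 15.59 on the oligospermic arrays, and 14.26, 14.31 and 14.15 on the trcp(1;14) arrays. All trcp(1;14) arrays lay below the others, and the control and oligospermic arrays overlapped. PGK2 fell by 0.95 on the log2 scale against control (SE 0.15, 1.94-fold, limma adjusted p = 0.0034). It fell by 1.25 against the oligospermic boar (SE 0.096, 2.38-fold, limma adjusted p = 9.1e-05).

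Within slides 1, 2 and 3 the trcp(1;14) minus control difference of PGK2 was -0.78, -1.33 and -0.75, so the array on every slide showed the same direction. With the slide as a block the adjusted p was 0.0117, and without trcp(1;14) array 1, 2 or 3 it was 0.0173, 0.0123 or 0.0199, above the threshold each time, while the log2 change stayed between -1.09 and -0.81 over 17 alternatives. Against the oligospermic boar the adjusted p stayed under the threshold in all 17. Oligospermic minus control was 0.30 (95% interval -0.09 to 0.68, limma adjusted p = 0.63). A further probe of the same sequence, reached only through its transcript accession and not counted among the 25, gave -0.89, 0.19 and -1.09 in the 3 comparisons.

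LDHC, the germ-cell lactate dehydrogenase, was measured by 2 probes with different sequences. Probe 1 read 14.43, 14.52 and 14.59 in control, 14.78, 14.84 and 14.94 in oligospermic and 14.37, 14.42 and 14.30 in trcp(1;14). The 3 groups did not overlap, with the oligospermic arrays highest and the trcp(1;14) arrays lowest, but the lowest control and the highest trcp(1;14) array differed by little. Probe 2 read 13.54, 13.28 and 13.33 in control, 13.63, 13.57 and 13.50 in oligospermic and 12.94, 13.04 and 12.81 in trcp(1;14). Here the trcp(1;14) arrays again lay below all others, and the other groups overlapped.

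Against control the LDHC difference did not pass the adjusted p. It was -0.15 (95% interval -0.41 to 0.11, limma adjusted p = 0.28) by probe 1 and -0.45 (95% interval -0.76 to -0.14, limma adjusted p = 0.027) by probe 2. Against the oligospermic boar both probes fell, by 0.49 (SE 0.092, limma adjusted p = 0.0037) and by 0.64 (SE 0.10, limma adjusted p = 0.0018). The first of these calls was lost without oligospermic array 2 or 3 (adjusted p = 0.0151 and 0.0111) and without trcp(1;14) array 1 or 3 (0.0178 and 0.0201). Probe 1 was higher in oligospermic than in control by 0.34 (95% interval 0.05 to 0.63, limma adjusted p = 0.42), the only 1 of the 25 isozyme probes whose oligospermic and control arrays did not overlap, against 15.7% of all probes in either direction and 8.02% higher, and probe 2 gave 0.19. A further probe with the sequence of LDHC probe 1, reached through its transcript accession and not counted among the 25, gave -0.23, 0.30 and -0.53 in trcp(1;14) minus control, oligospermic minus control and trcp(1;14) minus oligospermic, and its oligospermic and control arrays did not overlap either.

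**Figure D1:**
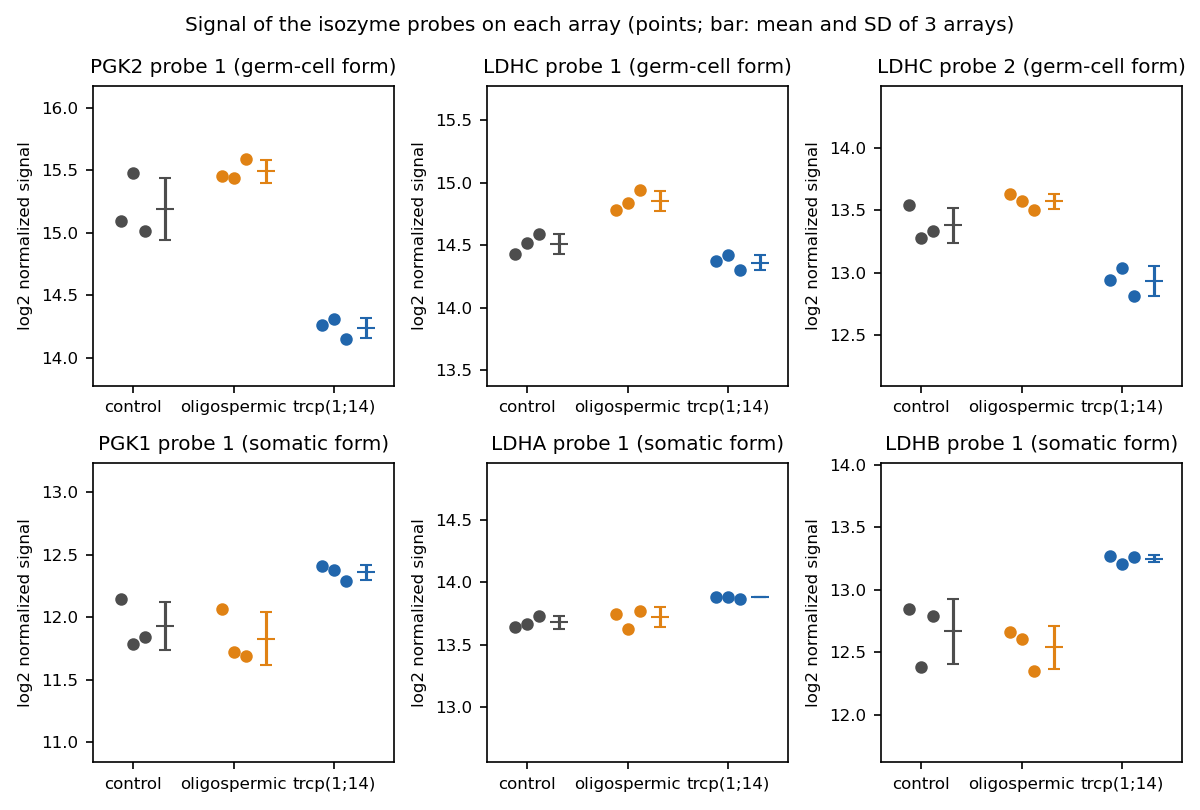
Log2 normalized signal (y axis, 2.4 log2 units in every panel) on each array for 3 germ-cell probes and the first probe of 3 somatic genes, with the mean and SD of the 3 arrays of a group beside the points. The 3 trcp(1;14) points lie below the controls in the upper panels, PGK2 at 14.15 to 14.31 against 15.01 to 15.48, and above them in the lower panels, LDHB at 13.21 to 13.27 against 12.38 to 12.85.

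PGK1, the somatic phosphoglycerate kinase, ran the opposite way to PGK2. Probe 1 read 12.15, 11.79 and 11.84 in control, 12.07, 11.72 and 11.69 in oligospermic and 12.41, 12.38 and 12.29 in trcp(1;14). Again the trcp(1;14) arrays stood apart, here as the highest. Against control the 6 probes ranged from 0.32 to 0.81 with a median of 0.47, and 1 of 6, probe 3, passed the adjusted p (0.66, SE 0.11, limma adjusted p = 0.0046). Against the oligospermic boar the range was 0.42 to 0.77, and 1 of 6, probe 2, passed (0.51, SE 0.089, limma adjusted p = 0.0026), with probe 3 just above the threshold. With the slide as a block probes 3 and 4 passed there too (limma adjusted p = 0.00921 and 0.00218), but against control probe 3 no longer did (0.015). In oligospermic minus control the 6 probes lay between -0.12 and 0.04, with limma adjusted p-values of 0.89 to 1.0.

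The X linkage of PGK1 sets its values beside those of its chromosome. The median log2 fold change in trcp(1;14) minus control was 0.51 over 407 probes of X-linked genes, 0.10 over 11677 probes of autosomal genes and 0.14 over all tested probes. Under quantile normalization PGK1 thus lay near the X median. In oligospermic minus control the X median was -0.05. With 75th percentile scaling PGK1 probe 1 gave 0.28 in trcp(1;14) minus control, and no X median was taken under that scaling. The part of the chromosome-wide shift in the PGK1 value was not tested.

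LDHB, the lactate dehydrogenase subunit that predominates in heart, was higher in trcp(1;14) by each of its 12 probes. Probe 1 read 12.85, 12.38 and 12.79 in control, 12.66, 12.61 and 12.35 in oligospermic and 13.27, 13.21 and 13.26 in trcp(1;14). Its trcp(1;14) arrays lay together above all others, and the control arrays were the more widely spread, at an SD of 0.26 against 0.03. Against control the 12 probes ranged from 0.46 to 0.69 without passing (limma adjusted p = 0.012 to 0.11). The trcp(1;14) arrays of all 12 did lie above the control arrays without overlap, as for 35.8% of all probes. Against the oligospermic boar all 12 rose, by 0.65 to 0.90 (limma adjusted p = 0.00061 to 0.0059), beside 27.1% of all probes. Oligospermic minus control lay between -0.29 and -0.06.

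The LDHB probes could not be divided between the 2 loci. Of the 12 probes 6 listed 2 Ensembl transcripts and 6 listed 1, and in trcp(1;14) minus control the former ranged from 0.46 to 0.66 and the latter from 0.57 to 0.69. The ranges overlapped.

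LDHA, the subunit that predominates in muscle, differed least of the somatic forms with agreeing probes. Probe 1 read 13.64, 13.67 and 13.73 in control, 13.75, 13.63 and 13.77 in oligospermic and 13.88, 13.88 and 13.87 in trcp(1;14). Its highest arrays were those of trcp(1;14). Both probes gave 0.20 against control (95% intervals -0.04 to 0.44 and -0.05 to 0.45, limma adjusted p = 0.14 and 0.15) and 0.16 and 0.21 against the oligospermic boar. This direction held under quantile normalization and flipped when each array was centred on its 75th percentile, to -0.0046 against control and -0.0798 against the oligospermic boar for probe 1.

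GAPDH, the somatic dehydrogenase often used as a reference gene, gave different answers by its 2 probes. Probe 1 read 15.07, 14.87 and 14.94 in control, 14.91, 14.78 and 14.72 in oligospermic and 15.45, 15.61 and 15.45 in trcp(1;14), where array 2 was saturated, so its value there is a lower limit. It rose by 0.54 against control (SE 0.12, limma adjusted p = 0.0097) and by 0.70 against the oligospermic boar (SE 0.10, limma adjusted p = 0.0012), and without the saturated array the differences were 0.49 and 0.65. Probe 2 read 12.60, 12.45 and 12.71 in control, 12.38, 12.45 and 12.44 in oligospermic and 12.38, 12.60 and 12.30 in trcp(1;14). Its groups overlapped, with differences of -0.15 (95% interval -0.48 to 0.17) and 0.01 (95% interval -0.25 to 0.27).

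A further probe, outside the 25, that shared 52 bases with GAPDH probe 1 gave 0.58 and 0.78 in these comparisons. On trcp(1;14) array 2 it was not marked as saturated, but its unprocessed mean signal of 64027 lay near the highest on that array, 65535, and without the array its differences were 0.40 and 0.61. The call of probe 1 against control did not survive the removal of any single array or the slide block (adjusted p = 0.0171), and it held in 6 of 17 alternatives. A direction for GAPDH as a gene was therefore not settled.

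The ratio of germ-cell to somatic form, taken on each array, put these opposite changes together. Since levels of different probes cannot be compared, each log2 difference is given relative to its control mean. PGK2 minus PGK1 was -0.32, 0.42 and -0.10 in control, 0.11, 0.45 and 0.64 in oligospermic and -1.41, -1.34 and -1.40 in trcp(1;14). Only the trcp(1;14) group stood apart. The ratio was 2.61-fold lower in trcp(1;14) than in control (log2 -1.38, SE 0.22) and 3.44-fold lower than in the oligospermic boar (-1.78, SE 0.16). Each gave p = 0.1 in a two-sided exact permutation test, the smallest p that 3 arrays against 3 allow.

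LDHC minus LDHA was -0.04, 0.02 and 0.03 in control, 0.20, 0.38 and 0.33 in oligospermic and -0.34, -0.29 and -0.41 in trcp(1;14). Its 3 groups did not overlap, with oligospermic highest, control between and trcp(1;14) lowest. The changes were small: 1.27-fold lower in trcp(1;14) than in control (log2 -0.35, SE 0.04), 1.24-fold higher in oligospermic than in control (0.31, SE 0.059) and 1.57-fold lower in trcp(1;14) than in oligospermic (-0.65, SE 0.064), each with exact p = 0.1.

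LDHC minus LDHB was -0.26, 0.29 and -0.04 in control, 0.28, 0.40 and 0.75 in oligospermic and -0.74, -0.63 and -0.80 in trcp(1;14). As with phosphoglycerate kinase, trcp(1;14) lay below both other groups, which overlapped. The ratio was 1.65-fold lower than in control (log2 -0.72, SE 0.17) and 2.30-fold lower than in the oligospermic boar (-1.20, SE 0.15), with exact p = 0.1.

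Over the 3 groups together, an exact permutation test of F over 1680 assignments gave p = 0.0071 for PGK2 with PGK1, 0.0036 for LDHC with LDHA, the smallest possible, and 0.0071 for LDHC with LDHB. These were 3 ratios, of which 2 share LDHC, with 9 pairwise tests beside them, and none of the p-values was adjusted. These assignments moved arrays across slides, although each slide held 1 array of every group. Shuffled within slides, over 216 assignments, each ratio gave exact p = 0.028, the smallest possible. Oligospermic minus control gave exact p = 0.2 for both ratios that overlapped. Within slides every trcp(1;14) minus control difference was below 0, from -1.82 to -1.02 for PGK2 with PGK1, -0.43 to -0.25 for LDHC with LDHA and -1.09 to -0.37 for LDHC with LDHB.

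**Figure D2:**
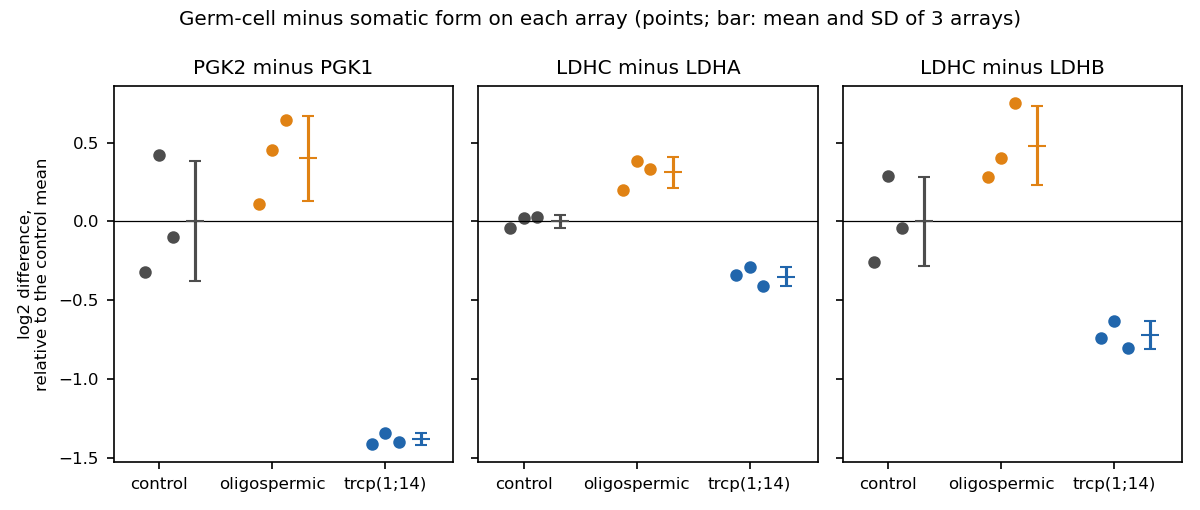
Log2 signal of the germ-cell form minus that of the somatic form on each array, relative to the control mean (y axis), for the 3 ratios, with the mean and SD of 3 arrays beside the points. The trcp(1;14) points lie below 0 in each panel, at -1.41 to -1.34, -0.41 to -0.29 and -0.80 to -0.63.

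Markers of spermatids moved with these results. Of 14 spermatid markers 11 had a probe, all above background, and in trcp(1;14) minus control 9 were lower at the adjusted p alone, beside 15.6% of all probes, and 6 were called, beside 4.30% called lower, with a median of -2.10 and a range of -2.55 to -0.02. Their summed linear signal was 410327 to 452185 in control, 433387 to 450864 in oligospermic and 196942 to 226817 in trcp(1;14). PGK2 and LDHC thus lay above the spermatid median. Of the 14 spermatocyte markers 7 had a probe, 1 higher and 1 lower at the adjusted p alone, with a median of -0.10, a range of -1.06 to 0.97 and sums of 33282 to 38609, 32365 to 34809 and 33380 to 33993. The lower one, SPO11, did not pass with the slide as a block (limma adjusted p = 0.0184).

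Among somatic cell types the Leydig list stood out. Of 10 markers 9 had a probe, 7 were higher at the adjusted p alone, beside 15.6% of all probes, and 5 were called, beside 1.31% called higher, with a median of 2.31, and the sums were 74479 to 76404, 59049 to 80007 and 177510 to 194275. The other lists went both ways or moved little. Of 9 tested Sertoli markers 2 were lower at the adjusted p alone, TF at -2.72 (called) and WT1 at -1.43, beside 15.6% of all probes lower and 4.30% called lower, and none was higher, with a median of -0.16. Of 7 peritubular and vascular markers 2 were higher, PECAM1 at 1.41 and VWF at 0.91, and 1 was lower, CNN1 at -1.09, with a median of 0.91. Of 5 spermatogonium markers 1 was higher and 1 lower, with a median of 0.49, and of 3 immune and blood markers 1 was higher, with a median of 0.50. With the slide as a block HSD3B1 of the Leydig list, VWF, CNN1 and CD14, the immune marker, no longer passed (limma adjusted p = 0.0195, 0.0188, 0.0134 and 0.015). The part of these cell types in the isozyme values was not tested.

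**Figure D3:**
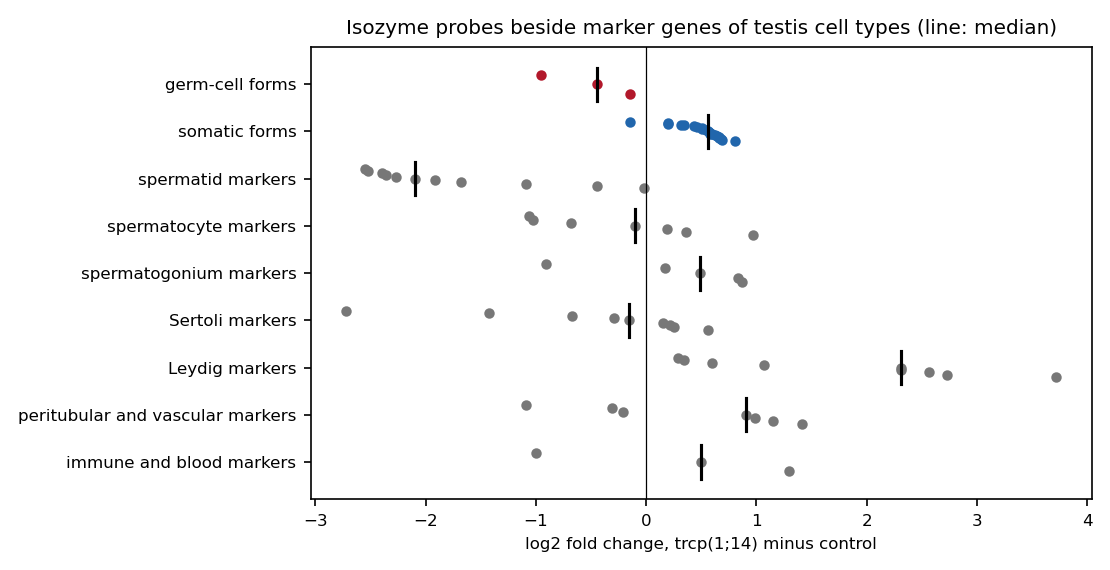
Log2 fold change in trcp(1;14) minus control (x axis) of the isozyme probes and of the marker genes of 7 testis cell types (rows), each point 1 probe and each line a median. Germ-cell forms lie at -0.95 to -0.15, to the right of the spermatid median of -2.10, and somatic forms have a median of 0.56, to the left of the Leydig median of 2.31.

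The remaining enzymes of glycolysis went both ways in trcp(1;14), more of them lower than higher. Of 23 listed genes 13 had a probe, represented here by the brightest. By that probe none was called in trcp(1;14) minus control, against 5.61% of all probes, 3 were lower and 1 was higher at the adjusted p alone, beside 15.6% of all probes in each direction, and the median of the 13 was -0.37 beside 0.14 over all probes. Over all 27 tested probes of these genes, however, 3 were called there, 1 each of HK1, PKM and ENO4 and all lower, and 10 were lower and 1 higher at the adjusted p alone, of which 5 were the TPI1 probes. Against the oligospermic boar 1 was called, lower, as were 4.89% of all probes, with 6 lower and 2 higher at the adjusted p alone, beside 22.0% and 27.1% of all probes. Over the 27 probes 3 were called there, and 14 were lower and 2 higher at the adjusted p alone. In oligospermic minus control none of the 27 passed at the adjusted p alone. The brightest probes of the 13 genes lay between -0.38 and 0.25 there, and other probes reached -1.36 (ENO4) and 0.31 (PKM).

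HK1, the hexokinase that opens the pathway, was the gene called against the oligospermic boar by its brightest probe. It read 15.54, 15.65 and 15.48 in control, 15.62, 15.59 and 15.73 in oligospermic and 13.58, 13.66 and 13.52 in trcp(1;14). Control and oligospermic arrays overlapped far above those of trcp(1;14). HK1 fell by 2.06 against the oligospermic boar (SE 0.092, 4.17-fold, limma adjusted p = 2e-05). It fell by 1.97 against control (SE 0.11, 3.92-fold, limma adjusted p = 0.00013), just short of the fold threshold. Its other probe gave -2.20 and -2.08.

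Among further enzymes, named after their values were seen, TPI1 (triosephosphate isomerase) fell by 1.67 against control with all 5 probes between -1.87 and -1.62, and PGAM2 (phosphoglycerate mutase) fell by 0.94. GPI (glucose-6-phosphate isomerase) rose by 0.96 at its brightest probe, but 3 of its 4 probes were tested and ranged from -0.46 to 0.96, so they disagreed in sign. PKM (pyruvate kinase) gave -0.19 at the brightest of 4 probes and -2.12 at the lowest. ENO4, an enolase known from sperm, gave -0.89 and -2.79 by 2 probes. In oligospermic minus control these 2 gave 0.08 and -1.36, without passing the adjusted p.

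**Figure D4:**
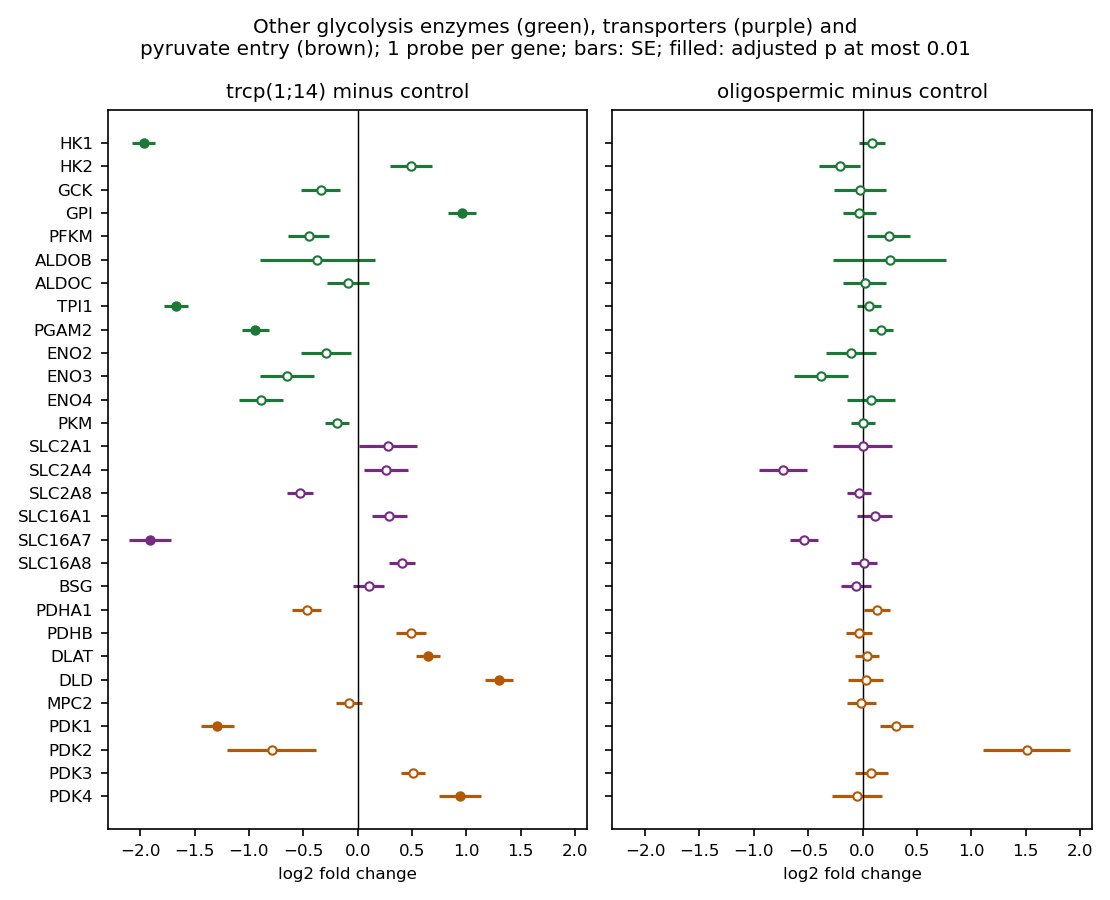
Log2 fold change (x axis, the same in both panels) of 1 probe per gene for the other glycolysis enzymes (green), glucose and lactate transport (purple) and pyruvate entry into mitochondria (brown), with bars for the SE and filled points for an adjusted p of at most 0.01. HK1 at -1.97, SLC16A7 at -1.91 and TPI1 at -1.67 lie furthest left in trcp(1;14) minus control, and no point is filled in oligospermic minus control.

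Lactate and glucose transport had 7 tested genes, with 1 lower and none higher at the adjusted p alone in trcp(1;14) minus control and a median of 0.26. Since 15.6% of all probes were lower, this count does not set the list apart. The lower one was SLC16A7, a monocarboxylate transporter, which fell by 1.91 with 9.0, 8.90 and 9.04 in control, 8.56, 8.27 and 8.50 in oligospermic and 7.39, 6.71 and 7.11 in trcp(1;14). Its 3 groups did not overlap.

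Pyruvate entry into mitochondria had 9 tested genes, of which 3 rose and 1 fell at the adjusted p alone against control, beside 15.6% of all probes in each direction, with a median of 0.49. With the slide as a block 1 of the 3, DLD, still passed. DLD, a subunit of the pyruvate dehydrogenase complex, rose by 1.30, and its 9 probes ranged from 0.90 to 1.33. PDK1, a kinase that inhibits that complex, fell by 1.29, with 3 probes between -1.63 and -1.10. PDK4, of the same kinase family, went the other way and rose by 0.94 (limma adjusted p = 0.0072, but 0.0174 with the slide as a block), with 9 probes between 0.19 and 1.02. PDK3 gave 0.51 (limma adjusted p = 0.011). PDK2, a further such kinase, was called in trcp(1;14) minus oligospermic (-2.30, 4.94-fold). It read 5.64, 4.39 and 4.03 in control, 6.0, 6.30 and 6.29 in oligospermic and 3.66, 3.91 and 4.11 in trcp(1;14), dim signals of which 8 of 9 were above background, and its control arrays spread widely.

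The list of hypoxia and glycolysis regulators had 7 tested genes, of which 1 was higher and 3 were lower at the adjusted p alone in trcp(1;14) minus control, beside 15.6% of all probes in each direction. The higher one was HIF1A, an oxygen-sensitive subunit of the hypoxia-inducible factors, which rose by 0.88 (SE 0.11, limma adjusted p = 0.0014), although its other probe gave 0.20. Of the other subunits of these factors on the list, EPAS1 fell by 1.14 (limma adjusted p = 0.0022) and ARNT fell by 0.89 (limma adjusted p = 0.0012). The other EPAS1 probe gave -0.65 without passing, and 2 of 4 ARNT probes passed, with a range of -1.09 to -0.4. The oligospermic arrays of EPAS1 also lay below the controls, by 0.55 (limma adjusted p = 0.5). CREM, a transcription factor of post-meiotic germ cells, fell by 1.55 at its brighter probe, from 14.49 to 14.63 in control to 12.98 to 13.03 in trcp(1;14), and its other probe gave -0.62. The 14.52 to 14.68 of the oligospermic arrays overlapped the controls.

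The genes whose signal followed each isozyme most closely were ranked by Pearson's r over the 9 arrays among 10715 probes of 5101 named genes, and since the arrays form 3 groups, r here mainly restates the group order. PGK2 was most like C6H1orf87, CRAT (carnitine acetyltransferase; r of 0.996 for both) and PDK1 (0.995). LDHC was most like SPTLC2, a serine palmitoyltransferase subunit (0.985), PAQR7, a membrane progestin receptor (0.979), and RAB3A, a GTPase of secretory vesicles (0.977).

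The somatic forms ranked beside other genes. GAPDH by its probe 1, saturated on 1 array, was most like RPS4X, an X-linked ribosomal protein gene (0.996), PPP2R2A and CS, citrate synthase (0.995 for both). LDHB was most like OSTF1 (0.996), RDH10, a retinol dehydrogenase (0.995), and RPL22, a ribosomal protein (0.993). PGK1 was most like SELENOK and TTC39C (0.985 for both) and NUP160, a nuclear pore protein (0.984). LDHA had the loosest neighbours, XIAP and IRF3 (0.943 for both) and SLC30A7, a zinc transporter (0.941).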

How the data were processed

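RNA of 9 testicular biopsies was labelled with cyanine 3 and hybridized to a 60K custom porcine Agilent array. The authors deposited 1 Feature Extraction 11.5.1.1 file per array, whose processed intensities are background-subtracted by the scanner software, and a table of 38759 probes as log2 values, quantile normalized over the 9 arrays. No column of another sample was present.

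The deposited processed intensities of 60889 non-control probes were log2-transformed and quantile normalized over 9 arrays. A probe was tested if well above background without an outlier flag on at least 2 of 3 arrays of a group. Each comparison was fitted on its own 6 arrays with limma 3.58.1 (R 4.3.3), with Benjamini-Hochberg adjustment over all tested probes and the methods' thresholds (adjusted p at most 0.01, absolute log2 fold change at least 2). A gene was represented by its brightest probe. Ratios were compared by two-sided exact permutation tests (scipy). The scripts were tested on simulated data. Genes named from the lists were those called by their brightest probe in at least 1 comparison (HK1 and PDK2); others were named after their values were seen. The 3 most correlated genes of each isozyme were named, leaving out LOC symbols. Isozymes and lists were chosen with earlier results of these data known. Replicate numbers paired the oligospermic and control arrays, which shared slides by number (correlations of deviations 0.478, 0.136 and 0.101). Precision was limited by 3 arrays a group, with a median SD over probes of 0.24 in control, 0.18 in oligospermic and 0.13 in trcp(1;14). Alternatives changed the scaling, background, filter, block, samples, variance prior, threshold and probe choice.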

Additional observations from a re-analysis of the deposited data

How the results depend on the processing

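Of 306 isozyme fold changes recomputed under alternatives, 302 kept their sign. Of the 102 in each comparison, those that moved by over 1.5 times numbered 6 in trcp(1;14) minus control, 3 in trcp(1;14) minus oligospermic and 21 in oligospermic minus control, where the values were small. With 75th percentile scaling LDHC against control went from -0.15 to -0.34 (adjusted p = 0.0401), PGK1 from 0.43 to 0.28 (0.129) and, against the oligospermic boar, from 0.53 to 0.34 (0.0551). With the median over probes LDHC became -0.30 and PGK1 0.68 against control, and GAPDH 0.19 and 0.35 in the comparisons of trcp(1;14) with control and with the oligospermic boar. At the adjusted p alone 16 calls were lost and 1 gained against control, and 8 were lost and 5 gained against the oligospermic boar. LDHA became -0.0046 (trcp(1;14) minus control) and -0.0798 (trcp(1;14) minus oligospermic) with 75th percentile scaling, and PGK1 in oligospermic minus control became 0.0140 with the median over probes and ranged from -0.2224 to 0.0080 when leaving out 1 array, the latter without control array 1. All 117 recomputed germ-cell minus somatic differences kept their sign.

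By both thresholds the count of isozyme genes was 0 in every alternative at those thresholds. At an absolute log2 fold change of 1 it was 1 in trcp(1;14) minus oligospermic, and at the adjusted p alone 2 in trcp(1;14) minus control and 4 in trcp(1;14) minus oligospermic. The other glycolysis enzymes called in trcp(1;14) minus control, 0 in the main analysis, numbered 1 with quantile normalization over 6 arrays, 75th percentile scaling or the median over probes, 2 at a log2 fold change of 1, 4 at the adjusted p alone, and 0 to 1 when leaving out 1 array. In trcp(1;14) minus oligospermic, 1 became 3 and 8 at those thresholds.

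The count at the adjusted p alone was followed after seeing the data. In trcp(1;14) minus control, 2 genes became 1 with normexp background, no filter or the median over probes, 3 with the intensity trend, 0 with the slide or the replicate block, and 0 to 1 when leaving out 1 array. In trcp(1;14) minus oligospermic, 4 became 5 with normexp background, the filter in both groups, the intensity trend or the authors' values, 3 with the median over probes, 3 to 5 when leaving out 1 array, and 1 with the replicate block, although replicate numbers did not pair these arrays (correlations -0.421, -0.335 and 0.121). The same holds for trcp(1;14) and control (-0.285, -0.194 and 0.139). Arrays on the same slide did deviate together, at 0.489, 0.292 and 0.33 for trcp(1;14) with oligospermic and 0.339, 0.109 and 0.119 for trcp(1;14) with control. With either block, added after seeing the data, PGK2 with PGK1 kept -1.38, -1.78 and 0.40, with p = 0.25, the smallest that an exact sign-flip permutation over 3 pairs allows. By limma the slide block, checked after seeing the data, left 0 of 3 isozyme probes at the adjusted p against control and 19 in place of 17 against the oligospermic boar, where the replicate block left 8. Against control the slide block also ended the calls of DLAT, PDK4 and 5 marker genes (SPO11, HSD3B1, VWF, CNN1 and CD14). In oligospermic minus control either block left 0 of 29 called probes and 0 of 30 at the adjusted p, with 4999 at an unadjusted p of at most 0.05. Leaving out an array or adding a block also lowers the residual degrees of freedom. The causes of these changes were not tested. GAPDHS with GAPDH could not be run. Saturation and the 3 arrays a group limit small differences of bright probes.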
